A study of Arabidopsis thaliana with 12 samples.

Results

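Transcripts of wild type Arabidopsis thaliana leaves after 3 h at 4 °C were compared with those at 0 h, to find which gene families respond early besides the CBF regulon, flavonoids, abscisic acid and the circadian clock. The comparison rests on 4 of the 12 arrays of the series, taken by their titles: 2 arrays of the Col accession at room temperature and 2 arrays of Col after 3 h of chilling (n = 2 arrays per group throughout). The plants were 2-week-old seedlings, unmodified at RDM4, grown on MS medium at 23 °C by day and 18 °C by night with 16 h of light. At least 30 seedlings from a plate gave the leaves for each RNA, so an array reads a pool of plants. The other arrays hold wild type after 48 h and plants carrying 35S::RDM4 at 0 h, 3 h and 48 h. In those plants the 35S promoter, active in most plant tissues, drives RDM4, a factor that works with RNA polymerases. The 35S::RDM4 arrays at 0 h and 3 h give a second difference below, taken from other arrays than the wild type one. Both differences were tested in one fit of all 12 arrays.

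No room temperature array at 3 h was analysed here, and the labels do not give the hour of sampling. Changes with time of day therefore cannot be told apart from those of chilling. The labels call the 2 arrays of a group biological replicates without saying that they came from separate plates. P-values and standard errors thus measure only the spread between arrays of a group. In the joint fit that spread is pooled over all groups of the series, so it is not that of the compared wild type arrays alone. In RNA from whole leaves, fewer cells of a type and less RNA per cell cannot be told apart.

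Plants sense a drop in temperature partly through membrane stiffening and an influx of calcium ions. Calcium-binding proteins and mitogen-activated protein (MAP) kinases pass that signal to transcription factors within minutes to hours. The best known are the CBF proteins, which switch on genes for cryoprotective proteins. Growth slows in the cold at the same time, and hormone signalling, cell wall loosening and the supply of carbon, nitrogen and sulfur are known to be adjusted with it.

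Levels are given as the log2 of the scanner's processed signal relative to the 75th percentile of the same array, so a level of 0 is that of a fairly bright gene and each unit is a 2-fold step. After dim probes were removed, 20550 genes were tested. On the 4 arrays 73.8% to 76.5% of probes lay well above background, and replicate arrays correlated across genes at r = 0.997 at both times. The first replicates of wild type lay on one slide and the second replicates on another, scanned on another day, so each slide holds its own 3 h minus 0 h difference. Replicate number, slide and scan day cannot be told apart in these 4 arrays.

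The label leaf was checked against markers. All 5 leaf mesophyll markers were well above background on all 4 arrays and none passed the test, with a summed level of 9.18 and 8.61 at 0 h and 9.14 and 8.61 at 3 h. These levels come from the brightest probe of each gene, and such bright probes did not follow the scale of the arrays. Other probes of CA1, RCA and GAPA were higher at 3 h by up to 1.24, 0.71 and 0.44 on the log2 scale. The root markers SCR, COBL9, PYK10, EXPA7 and CASP1 were above background on all 4 arrays too. PYK10, a root glucosidase, stood at 5.86 and 5.62 at 0 h and at 6.01 and 5.63 at 3 h. CASP1, a protein of the root endodermis, stood at 1.87 and 1.82 at 0 h and at 1.61 and 1.59 at 3 h. RNA from tissue other than leaf blades may thus be present at both times, and its part in the results was not tested. The guard cell markers FAMA and HT1 fell by 0.77 and 0.94 on the log2 scale, while the other guard cell markers KAT1, SLAC1 and MYB60 differed by 0.05, 0.02 and -0.09. The pollen marker AGP11 and the meristem markers WUS and CLV3 were above background on none of the 4 arrays. The pollen marker AGP6 and the meristem marker STM, however, were above it on all 4, as were the seed markers CRA1, CRU3 and OLEO1. The seed marker SESA3 was above it on 1. RDM4 itself fell by 0.40 in wild type (adjusted p = 0.00541 in limma), from 0.58 and 0.50 to 0.16 and 0.13.

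At an adjusted p below 0.05 in limma, 14157 of the 20550 genes (68.9%) passed, 6392 higher at 3 h (31.1%) and 7765 lower (37.8%). So large a share means that passing alone says little about a gene list, and the counts below also use a minimum of 2-fold. By that rule 1290 genes rose (6.28%) and 645 fell (3.14%), together 9.42%. These 1935 genes were chosen by their mean over the same 2 slides, so agreement between the slides is partly built in. All of them moved in the same direction on both slides and 1770 by at least 2-fold on both. The counts use the difference as measured, and 137 of the 1935 genes were above background on neither array of one of the times. Of the 14157 passing genes 14156 had arrays that did not overlap between the times. The median of all genes was -0.05.

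The gene families and functions below were taken as 30 lists with 1213 entries, of which 1072 were tested, covering 1038 genes. Of those genes 150 rose and 65 fell by at least 2-fold. Since the lists were chosen with earlier results of these data known, that share is a description only. The filter keeps a gene that is bright at either time. Of the 1038 genes, 1011 were above background on all 4 arrays and 14 were above it on neither array of one of the times.

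**Figure D1:**
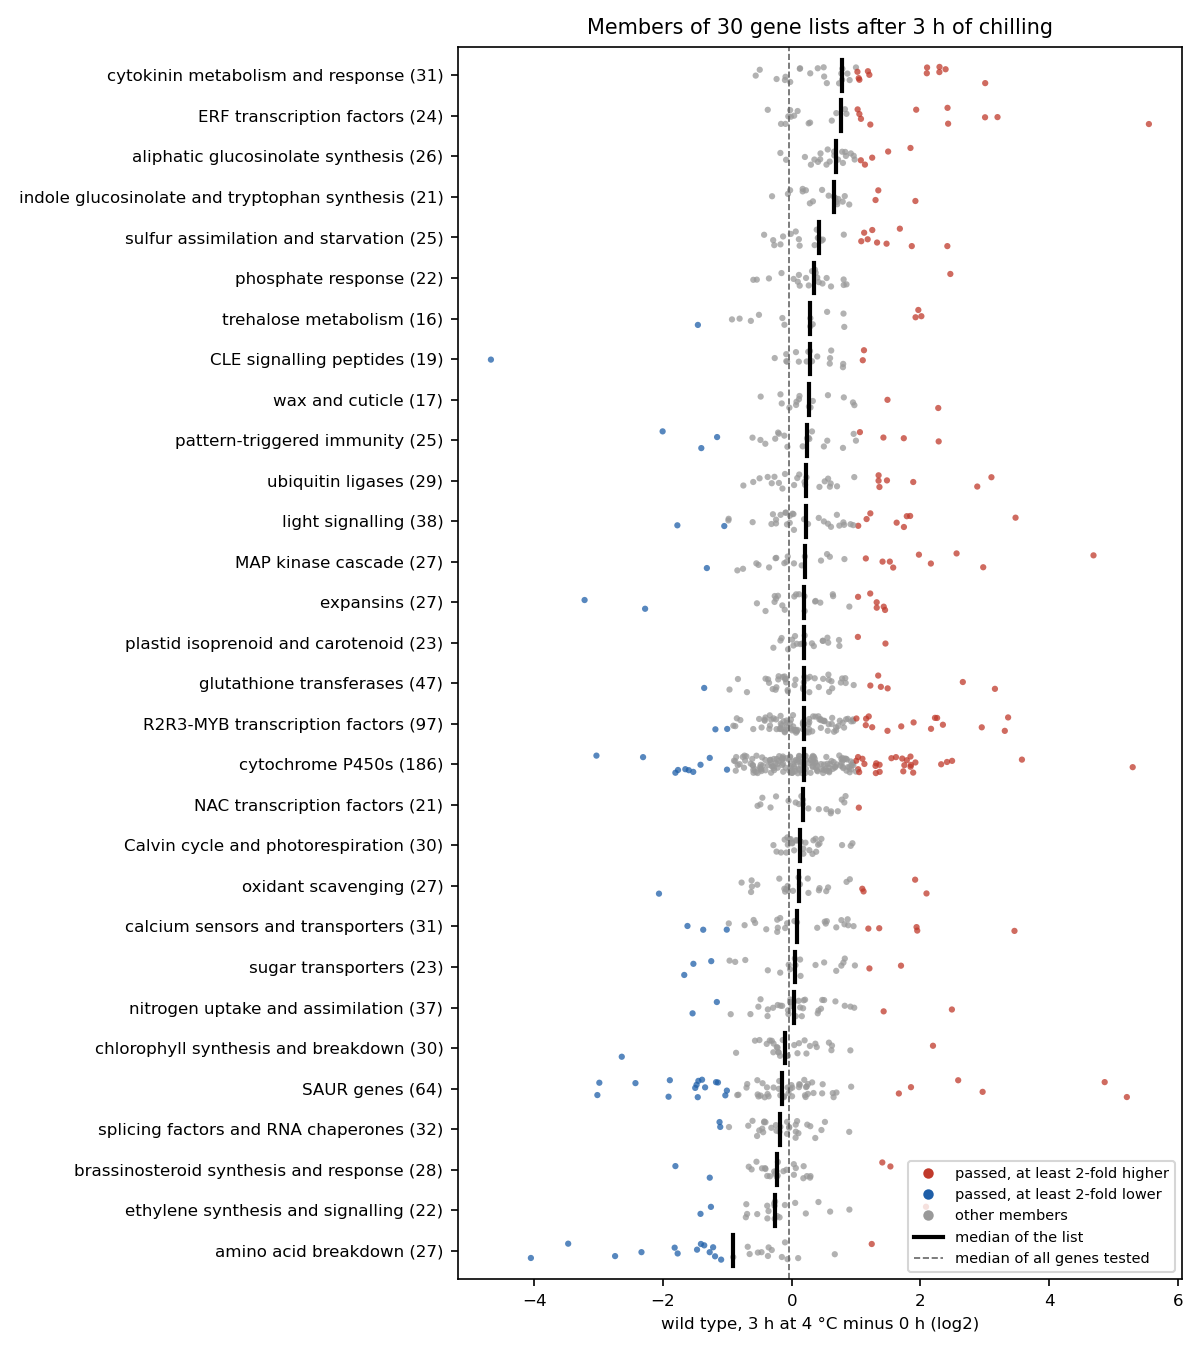
Difference of wild type at 3 h minus 0 h (log2, horizontal axis) for each tested member of the 30 gene lists, with the number tested in parentheses. Red points passed and were at least 2-fold higher, blue points at least 2-fold lower and grey points are the other members. Black bars mark list medians and the dashed line the median of all genes (-0.05). The cytokinin list has the highest median (0.78) and amino acid breakdown the lowest (-0.91).

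Calcium sensing and the kinases behind it moved early but not in one direction. Of 31 tested genes of calcium sensors and transporters 15 were higher and 12 lower, 5 and 3 of them by at least 2-fold, with a median of 0.08. CML38, which encodes a calmodulin-like protein, stood at -2.50 and -2.62 at 0 h and at 0.98 and 0.82 at 3 h, an 11.0-fold rise (log2 3.46 ± 0.08, standard error, adjusted p = 4.83e-09 in limma). The 2 arrays of a time lay close together for this gene. CML37 rose 3.87-fold (1.29 on the log2 scale under normexp, another background correction, against 1.95) and the touch-inducible TCH2 rose 3.84-fold. CML41, whose protein sits at plasmodesmata, went the other way, from -1.62 and -1.51 to -3.15 and -3.22, a 3.07-fold fall (adjusted p = 3.11e-08).

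The MAP kinase cascade list, 27 tested genes from the kinases at its head to the MAP kinases themselves, had 14 members higher and 8 lower. By at least 2-fold 9 rose (33.3%) and 1 fell. The rises at the head were led by MAP kinase kinase kinases. MAPKKK20 stood at -3.84 and -3.85 at 0 h and at -0.85 and -0.89 at 3 h (7.87-fold, adjusted p = 5.14e-10). MAPKKK21 rose 5.90-fold and MAPKKK18, a kinase of abscisic acid signalling, 4.48-fold. MAPKKK14 was not well above background on either array at 0 h (-8.90 and -8.52) and stood at -4.05 and -4.00 at 3 h. For a gene that is dim throughout one group, a lower limit is given instead of a fold: the bright group's mean is set against the lowest signal among probes called above background on each dim array, or against the gene's own signal where that is higher. The limit holds for the mean of the bright group, and single arrays of that group can lie nearer to background. By this rule MAPKKK14 was at least 11.6-fold higher. Its adjusted p in limma, 1.29e-07, belongs to the measured log2 difference of 4.69, which uses the signals below background, and not to the limit. The same holds for the calls of other genes given by a limit, which the filter kept through their bright group alone. MEKK3, of the same class, fell 2.5-fold (from -0.09 and -0.14 to -1.47 and -1.40), and MKK1, a kinase of the tier below, fell 1.8-fold. Under normexp the dim kinase genes rose by less, MAPKKK14 by 1.62 on the log2 scale, MAPKKK21 by 1.49 and MAPKKK18 by 1.33.

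Genes known from immunity triggered by microbial patterns split: 14 of 25 were higher and 9 lower, 4 and 3 of them by at least 2-fold. BAP1, a suppressor of cell death, stood at -3.38 and -3.30 at 0 h and at -1.62 and -1.58 at 3 h (3.34-fold). OXI1, a kinase activated by oxidants, rose 2.68-fold and NHL3 2.08-fold. PHI-1 had the largest rise of this list, from 1.22 and 1.26 to 3.58 and 3.47 (4.87-fold, adjusted p = 1.83e-08). Wall-associated receptor kinases fell: WAK1 from 0.30 and 0.31 to -1.70 and -1.70 (4.02-fold) and WAK2 2.65-fold. Only genes whose arrays did not overlap between the times were named, here as in the other lists.

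Ubiquitin ligases, which mark proteins for degradation, were mostly higher, 17 of 29 against 8 lower. At least 2-fold rises numbered 7 (24.1%) and falls 0. ATL78, a RING-type ligase, stood at -1.56 and -1.53 at 0 h and at 1.60 and 1.52 at 3 h (8.6-fold, adjusted p = 5.17e-09). The U-box ligase genes PUB19, CMPG1 and PUB23, whose proteins are known from drought and immune signalling, rose 7.38-fold, 3.70-fold and 2.79-fold. PUB19 started from a dim level, -6.03 on both arrays, and rose by 1.61 on the log2 scale under normexp against 2.88. BRH1, a brassinosteroid-responsive RING gene, fell 1.68-fold and XERICO, known to raise abscisic acid levels, fell 1.51-fold.

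**Figure D2:**
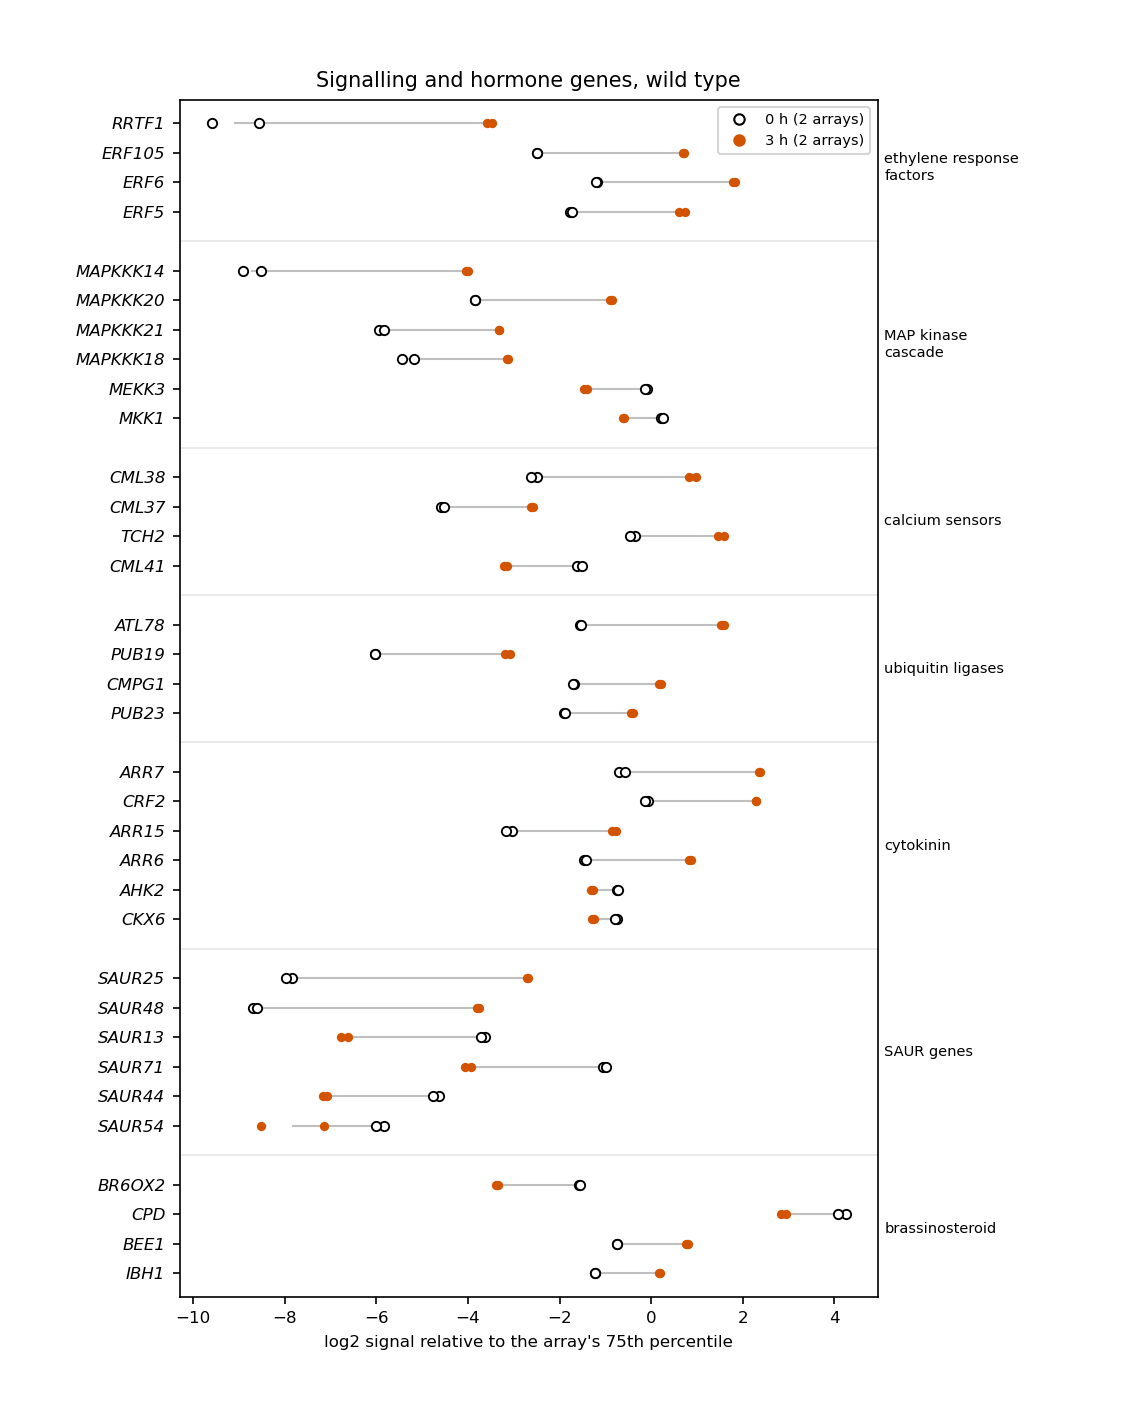
Level of named signalling and hormone genes on each of the 4 wild type arrays (log2 relative to the array's 75th percentile, horizontal axis). Open circles are the 2 arrays at 0 h, filled circles the 2 arrays at 3 h, and grey lines join the means. Genes were named only if their arrays did not overlap between the times. RRTF1, MAPKKK14, SAUR25 and SAUR48 are not above background at 0 h, nor SAUR44 at 3 h.

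Among transcription factors the ERF family, which binds ethylene- and stress-responsive promoters, had 15 of 24 tested members higher and 2 lower, with a median of 0.76. At least 2-fold rises were called for 10 members (41.7%, against 6.28% of all genes) and falls for 0. ERF105 stood at -2.49 and -2.48 at 0 h and at 0.72 and 0.69 at 3 h, a 9.18-fold rise (log2 3.20 ± 0.04, adjusted p = 3.53e-10). Its close relative ERF5 went from -1.78 and -1.73 to 0.61 and 0.75 (5.39-fold), and ERF6 of the same group rose 8.03-fold. RRTF1, a redox-responsive member, was above background on neither array at 0 h and rose by at least 16.3-fold. Its log2 difference was 5.55, against 1.83 under normexp and 2.54 with the deposited value table. RAP2.6L fell 1.29-fold and the locus AT5G61590 1.12-fold. The latter did not pass with the first 0 h array or the second 3 h array left out (-0.16 and -0.13).

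NAC factors, a plant family active in stress and senescence, moved less. Of 21 tested 12 were higher and 5 lower, and by at least 2-fold only NAC019 rose, from -1.79 and -1.83 to -0.78 and -0.76 (2.06-fold). NAC13, NAC102 and NAC032 rose 1.79-fold, 1.76-fold and 1.71-fold. NAP, a promoter of leaf senescence, fell 1.40-fold and NAC036 fell 1.45-fold.

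The R2R3-MYB family had 97 of 125 members tested, 52 higher and 22 lower. By at least 2-fold 15 rose (15.5%) and 2 fell (2.06%). MYB47 stood at -3.07 and -3.02 at 0 h and at -0.11 and -0.08 at 3 h (7.74-fold, adjusted p = 3.73e-10). PAP1, an activator of anthocyanin synthesis, rose 9.93-fold from -3.83 and -3.85 to -0.52 and -0.53. Dim members rest on weaker ground. MYB11, a flavonol regulator, was above background on neither 0 h array and at least 2.48-fold higher at 3 h, MYB102 was above it on 1 of 2 arrays and rose 5.10-fold, and under normexp neither passed (0.26 and 0.65 on the log2 scale). MYB78 fell 2.28-fold. MYB27 was above background on neither array at 3 h and at least 1.04-fold lower, which did not pass under normexp (-0.67) or with the deposited value table (-0.33).

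Light signalling genes were higher more often than lower, 20 against 10 of 38, and 8 rose (21.1%) and 2 fell by at least 2-fold. HYH, a bZIP factor that acts beside HY5 in photomorphogenesis, stood at -2.79 and -2.80 at 0 h and at 0.70 and 0.67 at 3 h (11.1-fold, adjusted p = 3.80e-09). SPA3 and SPA4, partners of the COP1 ligase that removes such factors in the dark, rose 3.45-fold and 3.35-fold. GNL, a GATA factor that promotes chloroplast formation, rose 3.58-fold. PAR1, a brake on shade growth, fell from 1.73 and 1.73 to -0.03 and -0.07 (3.43-fold) and PKS4, a phototropin and phytochrome partner, fell 2.07-fold.

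Cytokinin genes had the highest median of the 30 lists, 0.78. Of 31 tested 24 were higher and 3 lower, and 11 rose by at least 2-fold (35.5%) with 0 falls of that size. Type-A response regulators, which are switched on by cytokinin and dampen its signal, led the rises. ARR7 stood at -0.71 and -0.56 at 0 h and at 2.36 and 2.38 at 3 h, an 8.04-fold rise (log2 3.01 ± 0.06, adjusted p = 1.56e-09). ARR15 went from -3.05 and -3.16 to -0.78 and -0.84 and ARR6 from -1.46 and -1.42 to 0.88 and 0.83, each a 4.91-fold rise. For each of the 3 regulators the 2 arrays of a time lay close together. CRF2, a cytokinin response factor, rose 5.25-fold. The cytokinin receptor gene AHK2 and the cytokinin oxidase gene CKX6 fell 1.47-fold and 1.41-fold.

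SAUR genes, small auxin-responsive genes whose proteins promote cell expansion, moved strongly in both directions. Of 80 members 64 were tested, 19 higher and 31 lower. By at least 2-fold 6 rose (9.38%) and 15 fell (23.4%, against 3.14% of all genes). SAUR71 stood at -1.05 and -0.98 at 0 h and at -4.07 and -3.94 at 3 h (7.95-fold lower, adjusted p = 3.12e-09). SAUR13 fell 8.12-fold, from -3.62 and -3.72 to -6.77 and -6.61 (log2 -3.02 ± 0.76, adjusted p = 0.00718), and by 1.98 on the log2 scale under normexp and 1.96 with the deposited value table. SAUR44 was above background on neither array at 3 h and at least 5.35-fold lower. SAUR54 fell by 1.91 on the log2 scale, and by 1.22 or 2.61 with the second or the first 3 h array left out.

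The 2 largest rises in this family started below background. SAUR25 stood at -7.84 and -7.97 at 0 h, above background on neither array, and at -2.69 and -2.71 at 3 h, at least 29.0-fold higher. Its adjusted p in limma, 3.19e-08, belongs to the measured log2 difference of 5.21 and not to that limit. SAUR48 went from -8.69 and -8.60 to -3.75 and -3.81, at least 13.7-fold higher. Under normexp these differences were 2.65 and 1.69 on the log2 scale, still past the threshold.

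Brassinosteroids promote cell elongation. In the list of their synthesis and response genes 6 of 28 were higher and 16 lower, and 2 each rose and fell by at least 2-fold. BR6OX2, which makes the last steps to brassinolide, stood at -1.57 and -1.55 at 0 h and at -3.40 and -3.34 at 3 h (3.50-fold lower, adjusted p = 5.14e-08). CPD, an earlier hydroxylase, fell 2.42-fold, DET2 1.59-fold and DWF1 1.54-fold. Of the response genes BEE1, a growth-promoting factor, rose 2.89-fold. IBH1, an inhibitor of such factors, rose 2.65-fold by its brightest probe, but its other probe gave -0.12 and the mean of its probes 0.65.

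Ethylene genes were lower more often than higher, 14 against 4 of 22, where 37.8% and 31.1% of all genes were. Only 2 fell and 1 rose by at least 2-fold. The receptor gene ETR2 went from -1.26 and -1.31 to -2.72 and -2.68 (2.67-fold lower, adjusted p = 2.28e-08), and ERS1, another receptor, and CTR1, the kinase the receptors hold active, fell 1.64-fold and 1.63-fold. Ethylene synthesis divided. ACS6, an ACC synthase gene, stood at -1.49 and -1.51 at 0 h and at 0.62 and 0.55 at 3 h (4.25-fold higher). ACS8 fell by 1.26 on the log2 scale but did not pass with the deposited value table (-0.70). ACS5 was higher by 0.90 (adjusted p = 0.0302) and did not pass under normexp (0.39) or with any single array left out.

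Peptides and cell wall proteins of growth gave mixed counts. Of 30 CLE signalling peptide genes 19 were tested, 9 higher and 3 lower, 2 and 1 of them by at least 2-fold. Their median of 0.28 became -0.10 under normexp. CLE9 and CLE13 rose 2.18-fold and 2.15-fold. CLE44, whose peptide holds back xylem formation, rose 1.74-fold, as did CLE12, which did not pass under normexp (0.41). CLE18 stood at -5.39 and -2.87 at 0 h and was above background on neither array at 3 h. Taken from the 0 h mean it was at least 8.16-fold lower, a limit that the first 0 h array alone does not reach. The 0 h arrays differ so much that its difference was -3.41 or -5.94 with one of them left out.

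Expansins, which loosen cell walls, had 15 of 27 tested members higher and 8 lower, with 6 rises (22.2%) and 2 falls of at least 2-fold. EXLA1 stood at 1.64 and 1.67 at 0 h and at 3.00 and 2.96 at 3 h (2.5-fold), EXPA10 rose by the same fold and EXLA3 2.73-fold. EXPA12 rose 2.69-fold, but did not pass under normexp (0.47). EXPA16 fell from -2.17 and -2.04 to -5.31 and -5.34 (9.32-fold), with a second probe at -1.22. PNP-A, an expansin-like natriuretic peptide gene, fell 4.85-fold.

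Amino acid breakdown had the lowest median of the 30 lists, -0.91. Of 27 genes, all tested, 22 were lower and 2 higher, and 13 fell by at least 2-fold (48.1%, against 3.14% of all genes). BCAT2, a branched-chain aminotransferase at the first step of leucine, isoleucine and valine breakdown, stood at 2.52 and 2.51 at 0 h and at -1.54 on both arrays at 3 h. This 16.6-fold fall (log2 -4.05 ± 0.04, adjusted p = 1.19e-10) took a bright gene to a middling level. DIN4, a subunit of the branched-chain keto acid dehydrogenase that follows, fell 5.05-fold, from 0.73 and 0.64 to -1.62 and -1.68. MCCA, a subunit of methylcrotonyl-CoA carboxylase further down leucine breakdown, went from 2.47 and 2.39 to -0.28 and -0.35 (6.71-fold). The threonine aldolase gene THA1 fell 11.1-fold, from -1.23 and -1.05 to -4.64 and -4.60. The members that rose were TAT7, a tyrosine aminotransferase, at 2.37-fold, and the locus AT2G26800 at 1.59-fold.

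**Figure D3:**
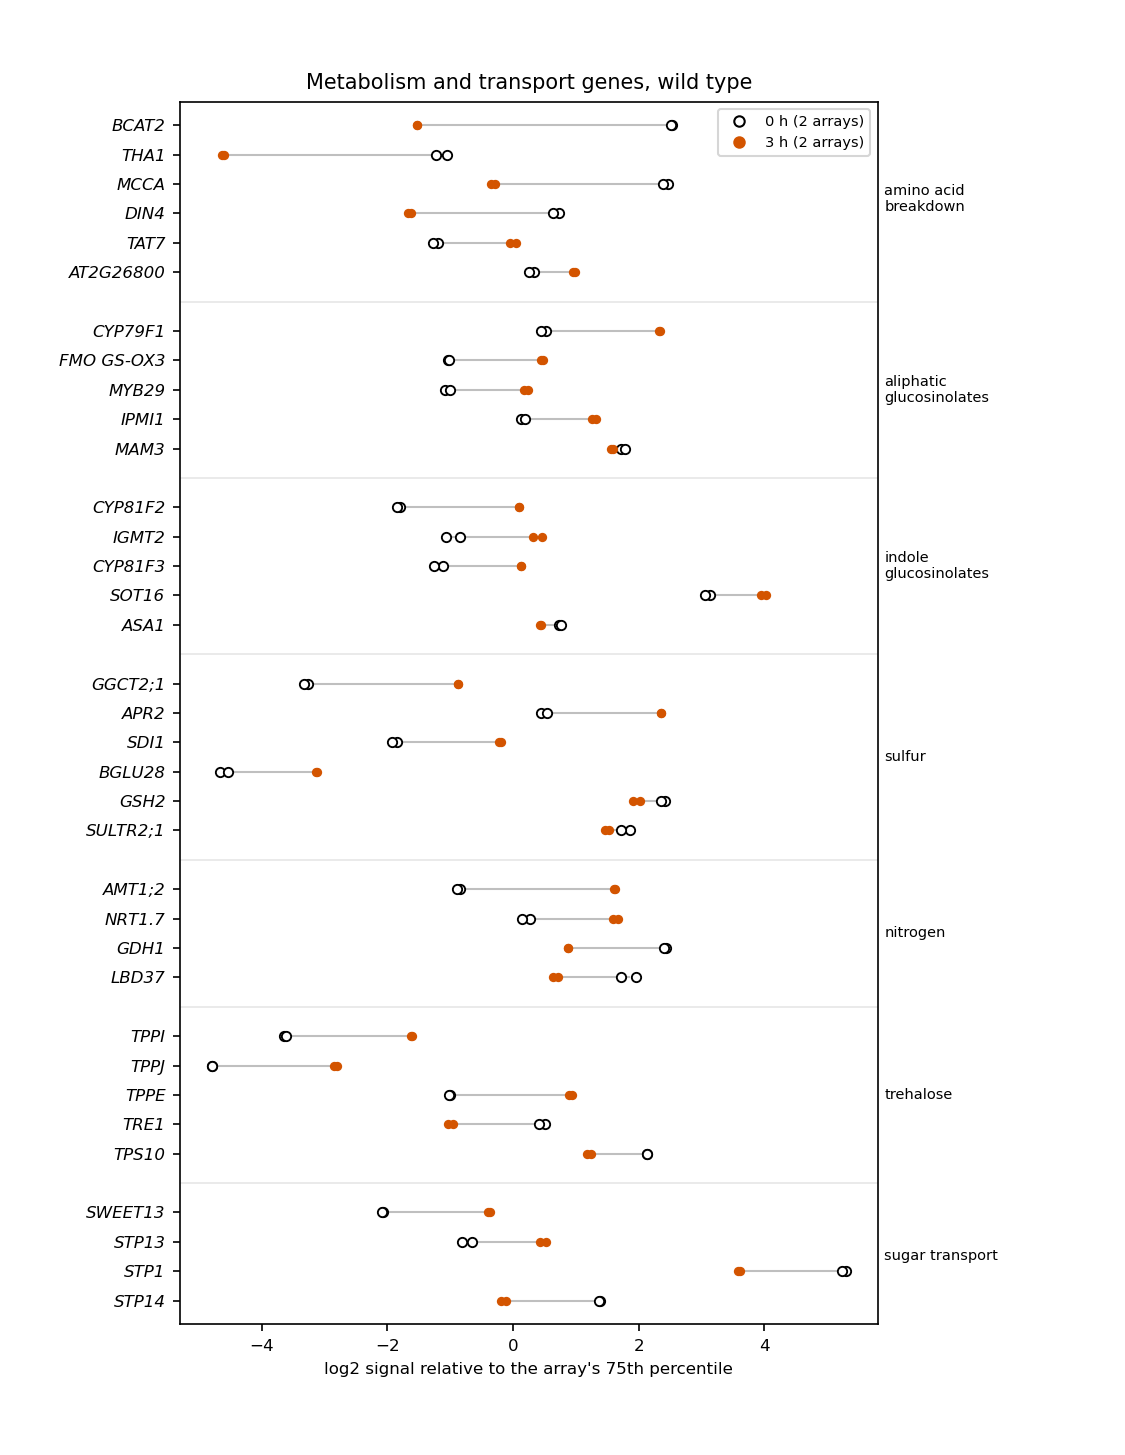
Level of named genes of metabolism and transport on each of the 4 wild type arrays (log2 relative to the array's 75th percentile, horizontal axis). Open circles are 0 h, filled circles 3 h, and grey lines join the means. BCAT2 shows the longest fall shown (log2 -4.05) and AMT1;2 the longest rise (2.49).

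Nitrogen uptake and assimilation, by contrast, was near the middle of all genes, with a median of 0.04. Of 37 tested genes 14 were higher and 11 lower, 2 and 2 of them by at least 2-fold. AMT1;2, an ammonium transporter gene, stood at -0.85 and -0.89 at 0 h and at 1.63 and 1.61 at 3 h (5.61-fold, adjusted p = 3.44e-10). NRT1.7, which loads nitrate into phloem for export from older leaves, rose 2.69-fold. GDH1, a glutamate dehydrogenase that releases ammonium, fell from 2.43 and 2.4 to 0.87 and 0.87 (2.91-fold) and LBD37, a repressor of nitrogen-responsive genes, fell 2.24-fold.

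Sulfur assimilation and starvation genes were higher in 16 of 25 cases and lower in 4, and 9 rose by at least 2-fold (36.0%) with 0 falls of that size. APR2, which reduces activated sulfate, stood at 0.44 and 0.54 at 0 h and at 2.36 and 2.35 at 3 h (3.64-fold, adjusted p = 3.01e-09). GGCT2;1, which breaks down glutathione, rose 5.35-fold, from -3.27 and -3.33 to -0.88 on both arrays. SDI1, a gene known from sulfur deficiency, rose 3.20-fold and BGLU28, a glucosidase gene of the same response, 2.78-fold (0.84 under normexp against 1.47 on the log2 scale). The glutathione synthetase gene GSH2 fell 1.35-fold and the sulfate transporter gene SULTR2;1 1.22-fold.

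Glucosinolate genes, whose products are sulfur-rich defence compounds of the cabbage family, were mostly higher. In the aliphatic branch 24 of 26 tested genes were higher and 1 lower, with a median of 0.69 and 5 rises of at least 2-fold (19.2%). CYP79F1, which starts the core pathway from chain-extended methionine, stood at 0.53 and 0.44 at 0 h and at 2.32 and 2.34 at 3 h (3.59-fold, adjusted p = 5.30e-09). MYB29, a regulator of the branch, went from -1.09 and -1.01 to 0.17 and 0.23 (2.38-fold). FMO GS-OX3, a side chain oxygenase, rose 2.83-fold and IPMI1, an isomerase subunit of chain extension, 2.20-fold. MAM3, a synthase of chain extension, was the member that fell, by 1.13-fold.

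In the indole branch with tryptophan synthesis 17 of 21 genes were higher and 1 lower, with a median of 0.65. At least 2-fold rises numbered 3 (14.3%) and falls 0. CYP81F2, which hydroxylates indole glucosinolates, stood at -1.80 and -1.85 at 0 h and at 0.10 on both arrays at 3 h (3.79-fold, adjusted p = 2.70e-09). IGMT2, a methyltransferase that acts on the product, and CYP81F3 rose 2.54-fold and 2.47-fold, and SOT16, a sulfotransferase of the last core step, 1.86-fold. ASA1, the anthranilate synthase subunit at the entry to tryptophan, fell 1.24-fold. Whether probes of close relatives, such as the IGMT or CYP81F genes, read each other's transcripts was not tested.

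All 16 tested genes of trehalose metabolism passed, 9 higher and 7 lower, 3 and 1 of them by at least 2-fold. The rises were led by trehalose-6-phosphate phosphatases, which remove the sugar signal trehalose-6-phosphate: TPPI, TPPJ and TPPE rose 4.04-fold, 3.91-fold and 3.80-fold. TPPI stood at -3.64 and -3.61 at 0 h and at -1.61 and -1.62 at 3 h (adjusted p = 1.17e-08), and TPPE at -1.01 and -1.02 and then at 0.93 and 0.89. The dimmer TPPJ rose by 1.37 on the log2 scale under normexp against 1.97. TRE1, the trehalase, fell 2.75-fold and TPS10, of the synthase family, 1.90-fold.

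Sugar transporters gave near-equal counts, 10 of 23 higher and 8 lower, 2 and 3 of them by at least 2-fold. SWEET13, a sucrose exporter, rose 3.24-fold, from -2.07 and -2.09 to -0.40 and -0.37. STP13, a hexose importer known from stressed leaves, rose 2.31-fold. Its relatives STP1 and STP14 fell, STP1 from 5.30 and 5.23 to 3.61 and 3.58 (3.18-fold, adjusted p = 3.06e-08) and STP14 2.88-fold.

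Of 30 Calvin cycle and photorespiration genes 10 were higher and 2 lower, and by their brightest probes 0 changed by 2-fold. With the mean of a gene's probes 18 were higher and 2 lower, and 1 rose by 2-fold. The largest rise was that of FBA1, an aldolase, from 5.29 and 5.07 to 6.30 and 5.95 (1.92-fold). Another probe of FBA1 gave a log2 difference of 1.48. CP12-2, a regulator of the cycle, followed at 1.89-fold and GLDP1, a subunit of glycine decarboxylase, at 1.72-fold. CP12-3 fell 1.18-fold and the locus AT1G80380 1.12-fold, the latter not past the threshold without the first 0 h array (-0.09) or the second 3 h array (-0.12), nor under normexp (-0.16). Genes as bright as these did not follow the scale of the arrays: RBCS1A stood at 7.40 and 7.33 on the first slide and at 6.71 and 6.64 on the second.

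In chlorophyll synthesis and breakdown 9 of 30 genes were higher and 13 lower, with 1 rise and 1 fall of at least 2-fold. PORA, the light-dependent protochlorophyllide reductase of young dark-grown tissue, fell 6.24-fold, from 0.32 and 0.30 to -2.32 and -2.34 (adjusted p = 5.13e-10), and PORB, its relative in green tissue, 1.82-fold. The chlorophyllase genes CLH2 and CLH1 rose 4.58-fold and 1.88-fold. PPH, the pheophytinase of leaf senescence, and SGR2 fell 1.42-fold and 1.49-fold. In the plastid isoprenoid and carotenoid list 14 of 23 were higher and 2 lower, with 2 rises and 0 falls of at least 2-fold. The rises were led by the carotene hydroxylase gene BCH2 (2.74-fold) and the carotenoid cleavage gene CCD4 (2.04-fold). BCH1 rose 1.67-fold and the lycopene cyclase gene LYC 1.66-fold, while DXS, at the entry of the pathway, fell 1.22-fold and Z-ISO 1.12-fold.

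Oxidant scavenging genes were higher in 12 of 27 cases and lower in 7, 4 and 1 of them by at least 2-fold. Their median of 0.11 lay between -0.0201 and 0.14 with single arrays left out. VTC2, which takes the first committed step to ascorbate, stood at 2.72 and 2.69 at 0 h and at 4.69 and 4.56 at 3 h (3.78-fold, adjusted p = 1.12e-08). The glutathione reductase gene GR1 rose 2.17-fold. Of the alternative oxidases of mitochondria AOX1A rose 2.14-fold, from 1.28 on both arrays to 2.34 and 2.41, and AOX1D fell 4.18-fold, from -3.02 and -2.99 to -4.96 and -5.17. The catalase gene CAT3 fell 1.72-fold. APX2 was above background on neither 0 h array and at least 2.65-fold higher at 3 h, which did not pass under normexp (0.01) or with the deposited value table (0.58).

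Glutathione transferases, which attach glutathione to other molecules, had 24 of 47 tested members higher and 13 lower, 6 and 1 of them by at least 2-fold. ERD9 stood at 0.59 and 0.62 at 0 h and at 3.26 and 3.27 at 3 h (6.32-fold, adjusted p = 5.95e-10), and GSTF12, needed for anthocyanin storage, rose 8.93-fold by its brightest probe, with a log2 difference of 2.53 by the mean of its probes. GSTU6 rose 2.61-fold. GSTF5 rose 2.81-fold but did not pass under normexp (0.24). GSTU3 fell 2.57-fold (-0.65 on the log2 scale with the deposited value table against -1.36) and GSTF3 1.96-fold.

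The cytochrome P450 family, oxygenases of hormone and specialised metabolism, had 186 of 240 members tested, 90 higher and 54 lower. By at least 2-fold 27 rose (14.5%) and 10 fell (5.38%). The abscisic acid hydroxylase genes CYP707A3, CYP707A2 and CYP707A1 led with log2 differences of 5.30, 3.58 and 2.49. Outside them CYP706A6 rose 5.33-fold, from -1.84 and -1.78 to 0.62 and 0.58 (adjusted p = 3.77e-09). CYP71B22 fell 8.20-fold, from -2.61 and -2.45 to -5.67 and -5.46. CYP71A20, counted among the 10 falls by its measured log2 difference of -2.31, was above background on neither array at 3 h. By the limit it was only at least 1.25-fold lower, and it did not pass under normexp (-0.92) or with the deposited value table (-0.67).

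Wax and cuticle genes were higher in 9 of 17 tested cases and lower in 3, with 2 rises and 0 falls of at least 2-fold. The activator MYB96 stood at -0.75 and -0.88 at 0 h and at 0.75 and 0.60 at 3 h (2.80-fold, adjusted p = 1.72e-07). WSD1, which joins wax esters, rose 4.85-fold from -6.85 and -6.63 (0.88 under normexp against 2.28 on the log2 scale). KCS1, a fatty acid elongation enzyme, and the activator MYB30 rose 1.96-fold and 1.93-fold. CUT1, the elongase of cuticular wax, fell 1.40-fold and MYB94 1.13-fold, the latter not past the threshold without the second 0 h array (-0.14).

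Of 22 phosphate response genes 14 were higher and 4 lower, but only 1 rose and 0 fell by at least 2-fold. The locus AT1G69480 rose 5.52-fold, from -4.18 and -4.08 to -1.70 and -1.63. SPX1, a phosphate sensor that holds back the starvation response, rose 1.8-fold, the phospholipase D gene PLDP2 and the phosphate exporter gene PHO1;H1 each 1.75-fold. SPX3 fell 1.51-fold and PEPC1, here the symbol of the phosphatase locus AT1G17710, 1.46-fold.

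Splicing factors and RNA chaperones were lower more often than higher, 17 against 6 of 32, where 37.8% and 31.1% of all genes were. Only 2 fell and 0 rose by at least 2-fold. SR45A went from 1.03 and 0.90 to -0.11 and -0.19 (2.16-fold lower, adjusted p = 5.21e-07), SCL33 fell 1.97-fold and U2AF65A, a factor that recognises the 3′ splice site region, 1.60-fold. RCF1, a DEAD-box helicase known from cold tolerance, fell 2.18-fold by its brightest probe, but its probes ranged from -1.12 to 0.16 and their mean gave -0.46. CSDP1, a cold shock domain protein, rose 1.86-fold. SCL28 rose 1.43-fold and did not pass under normexp (0.13). Splice forms were not told apart here.

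Among all genes with a symbol, outside the CBF, flavonoid, abscisic acid and clock lists, the largest changes belonged to several further functions. HSFA6B, a heat shock factor, stood at -6.26 and -6.09 at 0 h and at -1.38 and -1.49 at 3 h (26.7-fold, adjusted p = 7.43e-10, 3.24 under normexp against 4.74 on the log2 scale). ATGA2OX1, whose enzyme inactivates gibberellins, rose by 4.32 on the log2 scale, from -4.33 and -4.31 to 0.04 and -0.03. ELIP1 and ELIP2, pigment-binding proteins of chloroplasts under light stress, rose 19.9-fold and 14.8-fold. ELIP1 was bright at 3 h, at 4.02 and 3.96 against -0.30 and -0.35.

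The B-box factor BBX30 rose 15.7-fold (2.86 under normexp against 3.97 on the log2 scale), the mitochondrial dicarboxylate carrier gene DIC2 15.9-fold and AT5MAT, an anthocyanin malonyltransferase, 15.9-fold. The glucosyltransferase genes UGT73C1 and UGT84A1 rose by 4.67 and 4.57 on the log2 scale (2.74 and 3.48 under normexp). BZO1 was at least 7.53-fold higher by its 3 h mean, but its 3 h arrays lay at -6.17 and -3.12, the first short of that limit. It did not pass under normexp (1.39). BBX29, BBX31 and the terpene synthase gene TPS03, with log2 rises of 5.10, 4.92 and 5.90, complete the 15 largest rises. The ranking holds genes with a symbol in the reference table, so SAUR25 and SAUR48, listed there by locus code alone, are not in it. TPS03 was above background on 1 of 2 arrays at 0 h, with a second probe at 3.1 and a difference of 3.41 under normexp.

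The largest falls were those of PCR1 (log2 -4.76), MIOX4, XTH25 (-4.28), SEN1 (-4.06), MIOX2 (-3.58) and PCC1 (-3.53) beside BCAT2, CLE18, THA1 and EXPA16. MIOX4 was at least 16.6-fold lower, with a log2 difference of -4.45 against -2.55 under normexp and -2.62 with the deposited value table. Under normexp PCR1 and XTH25 gave -3.75 and -3.67. PUM20 and GOA, both above background on neither array at 3 h, were at least 5.20-fold and 3.00-fold lower by their 0 h means. For PUM20 the 0 h arrays lay at -7.11 and -2.45, so its limit does not hold for the first array alone. It did not pass in limma when only the 4 wild type arrays were fitted (adjusted p = 0.0607). GOA did not pass under normexp (-1.10).

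RTFL21, of a family of small peptides that restrict organ growth when overproduced, fell 10.8-fold, from -0.93 and -0.95 to -4.34 and -4.40 (adjusted p = 2.70e-09). Genes known from defence followed. LURP1, needed for resistance to a downy mildew, stood at 1.12 and 1.18 at 0 h and at -2.24 and -2.14 at 3 h (10.1-fold lower, adjusted p = 3.03e-09), and BG3, a beta-1,3-glucanase, fell 9.28-fold (-2.41 under normexp against -3.21 on the log2 scale).

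**Figure D4:**
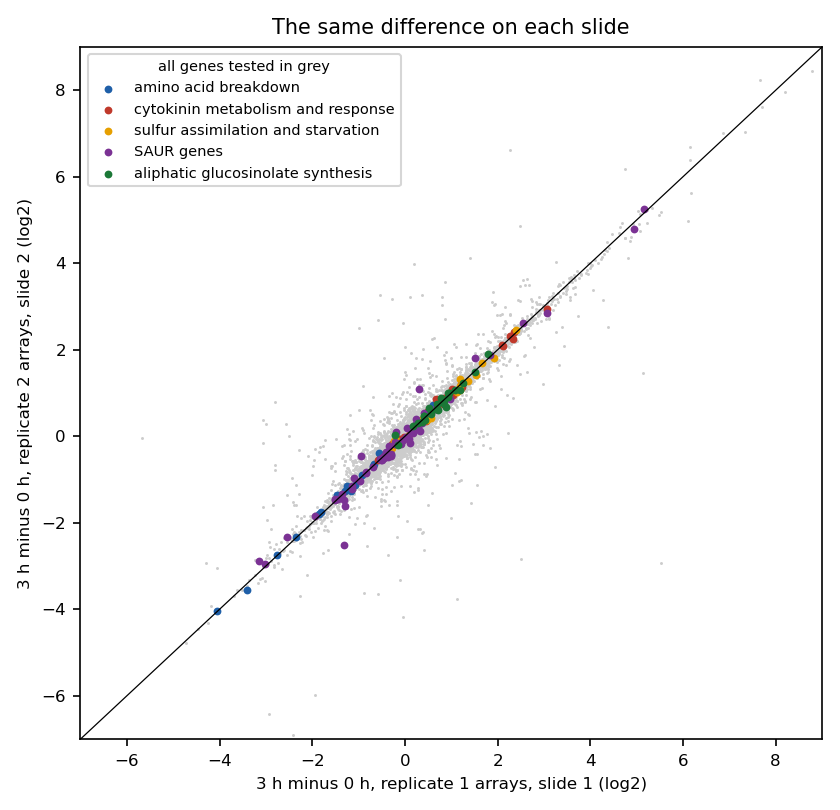
Difference of 3 h minus 0 h (log2) from the first replicates on one slide (horizontal axis) against that from the second replicates on the other (vertical axis). Grey points are all 20550 genes and coloured points the tested members of 5 lists, and the line marks equal differences. Across genes, which are not independent replicates, the 2 differences correlated at r = 0.943, and of the members drawn SAUR54 lies furthest from the line (-1.31 against -2.52).

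The lists were also read on each slide. Amino acid breakdown had a median of -0.93 on the first slide and -0.88 on the second, the cytokinin list 0.78 and 0.79, the ERF family 0.76 and 0.75, the aliphatic glucosinolate list 0.70 and 0.67 and sulfur 0.46 and 0.41. Other lists differed more: CLE peptides had 0.27 and 0.40, ubiquitin ligases 0.34 and 0.23, light signalling 0.17 and 0.28 and sugar transporters 0.01 and 0.09.

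The same lists were read in the 35S::RDM4 plants. Their arrays do not enter the wild type differences, but do enter the pooled spread and the choice of a gene's probe. The genes tested were those kept by the wild type filter. There 70.6% of all genes passed, 33.2% higher and 37.5% lower, and 9.4% changed by at least 2-fold, with 1357 genes higher (6.6%) and 574 lower (2.79%). Of the genes that rose in wild type 84.6% did so there too, 80.4% of those that rose there, and of the genes that fell in wild type 70.2%, 78.9% of those that fell there. Amino acid breakdown had 23 of 27 members lower and a median of -0.61, and the cytokinin list 24 of 31 higher and a median of 0.80. In the ERF family 17 of 24 were higher, with a median of 0.97. For the aliphatic glucosinolate list 22 of 26 were higher, with a median of 0.50. SAUR genes were lower in 35 of 64 cases, with SAUR25 higher by 5.46 and SAUR71 lower by 3.03 on the log2 scale.

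Levels at 48 h in wild type set some of these groups apart, given here as values with no test. ARR7, ARR15 and ARR6 stood at -0.20, -3.41 and -1.70, near their levels at 0 h, and so did ERF105 at -2.66. SAUR25 and SAUR48 were back at -7.99 and -8.56. The glucosinolate genes CYP79F1, MYB29 and IPMI1 stood at 2.32, 0.55 and 1.44, close to or above their 3 h levels. BCAT2 and THA1 were lower still than at 3 h, at -2.46 and -6.43. The sulfur genes GGCT2;1, SDI1 and BGLU28 lay below their 0 h levels, at -4.12, -3.23 and -5.91, and APR2 between the 0 h and 3 h levels at 1.32. PORA, low at 3 h, stood at 0.49 at 48 h.

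**Figure D5:**
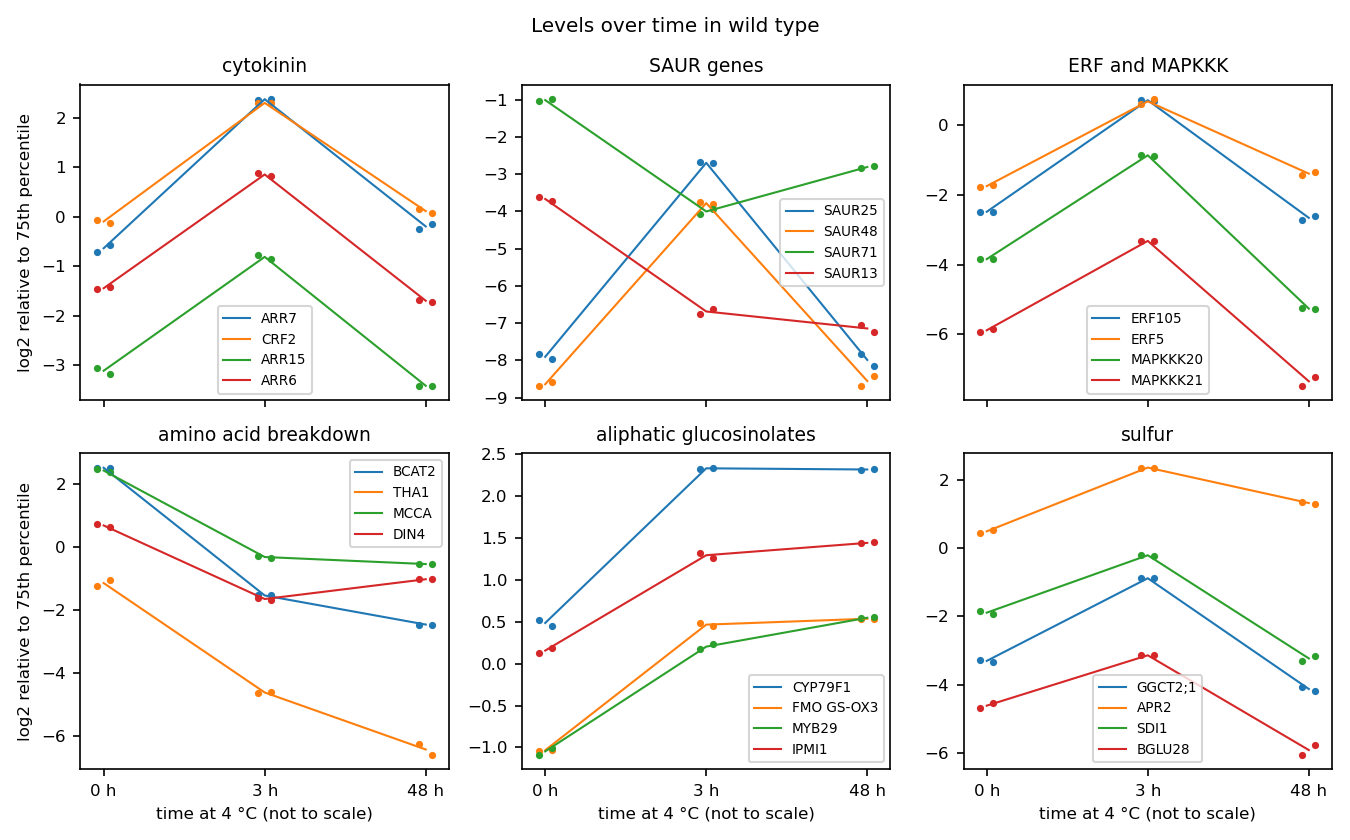
Level of 24 named genes in wild type at 0 h, 3 h and 48 h (log2 relative to the array's 75th percentile, vertical axis; times not to scale). Points are single arrays, 2 per time, and lines join the means. Cytokinin regulators stand high at 3 h only (ARR7 at 2.36 and 2.38), whereas the aliphatic glucosinolate genes stay high at 48 h (CYP79F1 at 2.32).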

How the data were processed

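Per the labels' protocols, 150 ng of total RNA with an integrity number of 7.5 or above was labelled with Cy3 for one-colour Agilent 4x44k Arabidopsis arrays. Per the file headers, the authors' scanner intensities came from Agilent Feature Extraction 10.7.1.1 with protocol GE1_107_Sep09, and the processed signal used here is a linear intensity from which background has been taken off. The deposited value table, also an intensity, equals the scanner's median signal on the wild type arrays used. Treatment of arrays beyond this is not given in the sources used here.

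Of 45220 features 1417 controls were left out. Spots of the same probe were averaged on the log2 scale, which gave 43603 distinct probes. These matched the reference table of symbols through their locus codes in 34285 cases, covering 25383 loci, and 9318 had no match. In all, 108 probes were left out for the scanner's outlier calls, and no spot of these arrays was saturated. Log2 of the deposited processed signal minus each array's 75th percentile was computed. Probes well above background, by the scanner's call, on both arrays of either wild type group were kept (32620, of which 28515 had a locus). The kept probe of highest mean level stood for its gene, and 6153 of the 20550 genes had more than 1. The 75th percentiles were 2700 to 5646. Precision is limited by the number of arrays.

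In limma 3.58.1 (R 4.3.3) all 12 arrays were fitted with 6 group means and variances moderated by empirical Bayes (6 residual and 2.28 prior degrees of freedom). P-values were adjusted by Benjamini-Hochberg over all genes and a gene passed below 0.05. The fit was tested on simulated data. Lists are described by counts and medians, with no list test. The members and lists were chosen with earlier results of these data known. Named genes follow a rule: per list up to 4 passing genes in its main direction and 2 in the other, the 15 largest rises and falls among genes with a symbol outside the CBF, flavonoid, abscisic acid and clock lists, all with arrays that do not overlap, and RDM4. The families in the closing section were chosen after their values were seen.

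Alternatives were normexp with an offset of 50 on the median signal and background, quantile and median scaling, no filter, a filter on all arrays, only the arrays compared, averaging a gene's probes, the value table, blocks for replicate, slide and scan day, trended robust variance, omission of single arrays and a 2-fold minimum. Coordinates and sequences are not printed, since the annotation behind the probes is of another build than the reference and no sequences were at hand. One root marker is not reported here.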

Additional observations from a re-analysis of the deposited data

Results flagged for a closer look

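For 37 of the 202 named genes the response at 3 h differed between wild type and 35S::RDM4 plants by a test of the difference itself. The test was the interaction of genotype and time in limma, adjusted over all genes, and 7.83% of all genes tested passed it. Named genes other than RDM4 were chosen by their wild type difference, which is part of this test. Their share therefore cannot be set against that of all genes. Values are the wild type log2 difference minus that in 35S::RDM4, so a negative value is a deeper fall or a smaller rise in wild type.

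For a first group, several of its genes known from defence, the fall was larger in wild type. The values were -2.19 for PCR1 (adjusted p = 6.98e-06), -1.85 for LURP1, -1.64 for BG3, -1.54 for PCC1, -1.29 for PNP-A, -0.75 for AOX1D, -0.65 for WAK1, -0.54 for MEKK3, -0.32 for SGR2, -0.28 for the locus AT3G47480 and -0.26 for GDH1. PCR1, for example, fell by 4.76 in wild type and by 2.56 in 35S::RDM4. Some of these genes stood lower in 35S::RDM4 already at 0 h. PCR1 lay there at -2.52 and -2.47, against a wild type mean of -1.22, and at 3 h at -5.08 and -5.05 against -5.98. PCC1 lay at 0.29 and 0.51 against 2.15, and at 3 h at -1.56 and -1.62 against -1.38. BG3 lay at -4.54 and -4.57 against -2.77, and at 3 h at -6.28 and -5.98 against -5.99. LURP1 lay at -0.26 and -0.33 against 1.15, and at 3 h at -1.83 and -1.74 against -2.19.

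GOA gave -3.89, but was dim at both times in 35S::RDM4. There it lay at -9.61 and -9.71 at 0 h and at -10.0 and -8.76 at 3 h, about as dim as in wild type at 3 h (mean -9.18), where it was above background on neither array.

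The phosphate genes PEPC1 and SPX3 were lower at 3 h in wild type and higher in 35S::RDM4. PEPC1 gave -1.13, with -0.54 in wild type and 0.59 in 35S::RDM4, and SPX3 -1.03, with -0.60 and 0.43. The ERF gene RAP2.6L gave -0.37, with -2.76 and -2.71 at 0 h and -2.76 and -2.72 at 3 h in 35S::RDM4.

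Rises smaller in wild type were those of STP13 (-0.66), OXI1 (-0.56), BAP1 (-0.50), CYP81F3 (-0.49), NRT1.8 (-0.45), NAC019 (-0.38), ERF6 (-0.36), NAC102 (-0.25) and TPPD (-0.24). Rises larger in wild type were those of the sulfur genes BGLU28 (0.96), GGCT2;1 (0.58) and SDI1 (0.56), the aliphatic glucosinolate genes MYB29 (0.46), CYP79F1 (0.40) and FMO GS-OX3 (0.36), and of GSTF12 (0.53), EXPA10 (0.44), CLE9 (0.38), CP12-2 (0.38), BEE1 (0.35) and PAP1 (0.30). EXPA16 fell less in wild type (0.46).

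The genotypes lay on different slides at these times. Each wild type pair of 0 h and 3 h arrays shares a slide, as does the first 35S::RDM4 pair, whereas the second 35S::RDM4 pair lies on 2 slides.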

How the results depend on the processing

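A minimum of 2-fold lowered the count of passing genes in wild type from 14157 to 1935, with 1290 higher and 645 lower, and in 35S::RDM4 to 1931, with 1357 and 574. The share of higher genes among those called moved from 45.2% to 66.7% with it. With each array left out in turn, wild type counts ranged from 12568 to 12984 passing, 5656 to 5943 higher, 6709 to 7207 lower, and at least 2-fold 1275 to 1325 higher and 620 to 681 lower. The ranges in 35S::RDM4 were 12988 to 13335, 6098 to 6305, 6781 to 7073, 1355 to 1364 and 552 to 610. The other alternatives kept each of these counts within 1.5 times of its value.

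Same-numbered arrays deviated together at a correlation of 0.188, from 2 pairs. In wild type they share a slide and a scan day per the file headers, and no label says that they share plants or a plate. With the replicate number as a block 14526 genes passed in wild type against 14157, and the call of none of the 202 named genes changed. Slide or scan day as a block and trended robust variance changed none of those calls either.

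Of the 202 named genes, 13 did not pass under normexp and 37 moved by over 1.5 times in fold. Under the deposited values 5 did not pass and 31 moved so far. These genes were mostly dim. The normexp setting adds an offset of 50 to each signal, and the deposited values are median signals with no background taken off. Both narrow differences between dim levels, and how far this accounts for each gene was not tested. The median of the CLE list was -0.10 under normexp against 0.28. That of oxidant scavenging, 0.11, ranged from -0.0201 (without the first 3 h array) to 0.14 with single arrays left out. A single array set the fold of BZO1, CLE18, PUM20, SAUR54 and APX2. APX2 gave 1.47 or 2.72 with the first or second 0 h array left out, against 2.09. DXS and Z-ISO did not pass without the first 0 h array (-0.23 and -0.14).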

Other observations

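Several families not described above were chosen after their values were seen, by the stem of the gene symbol, and carry no list test. Of all genes tested 31.1% were higher and 37.8% lower, and 6.28% and 3.14% were so by at least 2-fold. Receptor-like proteins (RLP), membrane proteins with extracellular leucine-rich repeats, some of which perceive microbial molecules, were lower in 26 of 43 tested cases and higher in 6. By at least 2-fold 11 fell and 0 rose, with a median of -0.60. Several of the 11 are dim, and no other background correction is given for them. RLP43, 1 of the 11, was above background on neither array at 3 h and by the limit at least 1.73-fold lower. RLP41 stood at -2.98 and -3.13 at 0 h and at -5.33 and -5.20 at 3 h (4.65-fold lower, adjusted p = 7.67e-08 in limma), and RLP40 fell 3.48-fold. RLP23, a receptor for a microbial peptide, fell 3.99-fold, from -4.07 and -4.24 to -6.46 and -5.84, with a second probe at -1.17 on the log2 scale. Among cysteine-rich receptor-like kinases (CRK) 14 of 26 were lower and 6 higher, with 8 falls and 1 rise of at least 2-fold. CRK7 fell 4.03-fold and CRK30 3.57-fold, and CRK41 rose 2.15-fold. Plant defensin genes (PDF) fell in 6 of 8 cases, 5 of them by at least 2-fold. PDF1.2 went from -0.11 and -0.04 to -2.23 and -2.14 (4.30-fold lower), and the near-identical PDF1.2b and PDF1.2c, which its probe may also read, fell 3.98-fold and 3.68-fold.

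Autophagy genes (ATG), which serve the recycling of cell contents in starved cells, were lower in 15 of 18 cases and higher in 0. Only 1 of them fell by at least 2-fold, and the median was -0.44. ATG8E stood at 3.24 and 3.22 at 0 h and at 2.11 and 2.09 at 3 h (2.19-fold lower, adjusted p = 2.67e-06), and ATG8F fell 1.74-fold. Kinases that bind calcineurin B-like calcium sensors (CIPK) were higher in 16 of 21 cases and lower in 3, with a median of 0.49. Only 2 rose and 0 fell by at least 2-fold. CIPK20 rose 2.36-fold, from 1.36 and 1.17 to 2.59 and 2.42, and CIPK1 rose 2.14-fold. Heat shock factors of class A divided, with 4 of 8 higher and 3 lower, 3 and 1 of them by at least 2-fold. HSFA6A rose 4.94-fold from -6.48 and -6.38, HSFA8 rose 2.59-fold and HSFA7A fell 4.18-fold, from 0.54 and 0.45 to -1.52 and -1.61.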
